A study of Mus musculus with 54 samples.

Results

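Enteroendocrine transcription factors were followed through the series as a set of 9 genes: Neurog3, Neurod1, Neurod2, Pax4, Pax6, Isl1, Insm1, Fev and Nkx2-2. They were chosen by name, for their known part in enteroendocrine cells, and with earlier results of these data known. All 9 were found among the 48440 entries of the mRNA table and in all 4 single-cell matrices. The study holds 54 mouse small intestine samples in 16 groups and carries miR-375 in its title. The members were measured in 20 of those samples. Of these, 16 were mRNA libraries of Sox9-EGFP Low sorted small intestine crypt cells, strain C57BL/6J, 4 each from mice on a chow diet, on a high fat diet, conventionalized and germ-free. In the Sox9-EGFP reporter mouse, EGFP is driven by Sox9 regulatory sequence, and the dim fraction is known as one rich in crypt stem cells. The other 4 were suspensions of single intestinal cells from 12-month-old mice, strain C57BL6/2J, with 1 wild-type and 1 miR-375 knockout sample in each of sets 1 and 2. The labels give no age, sex or length of diet for the mRNA mice, and no detail of the knockout allele. They do not say whether a library came from 1 mouse or from several, so a p-value here measures the spread between these samples.

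Enteroendocrine cells are the hormone-producing cells of the gut epithelium, and they arise from crypt progenitors that switch on Neurog3 for a short time. Neurog3 is a basic helix-loop-helix factor without which the gut endocrine lineage does not form, and it is followed by factors such as Neurod1, Insm1, Pax4, Nkx2-2, Fev, Isl1 and Pax6, which act during and after the choice of hormone. Several of these genes have the same place in the pancreatic islet, where miR-375 is abundant, and Mir375 is transcribed in enteroendocrine cells too.

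Helix-loop-helix factors bind short sites known as E-boxes, written CANNTG, and the 250 bases before the annotated start of 4 members are shown here to set beside the levels of Neurog3 and of the genes that moved together. The letters come from RefSeq with the build GRCm38.p6, and 7 of the 9 members had an entry, Pax4 and Insm1 being the others. Each line gives the strand of the gene from 5′ to 3′, with every CANNTG in capitals.
Neurog3, chr10:62132840-62133089, plus strand: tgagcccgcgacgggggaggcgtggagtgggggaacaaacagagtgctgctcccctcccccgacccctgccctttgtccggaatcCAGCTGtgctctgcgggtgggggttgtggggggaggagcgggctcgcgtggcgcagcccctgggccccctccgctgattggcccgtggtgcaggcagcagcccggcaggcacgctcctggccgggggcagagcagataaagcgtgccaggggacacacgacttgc
Neurod2, chr11:98329646-98329895, minus strand: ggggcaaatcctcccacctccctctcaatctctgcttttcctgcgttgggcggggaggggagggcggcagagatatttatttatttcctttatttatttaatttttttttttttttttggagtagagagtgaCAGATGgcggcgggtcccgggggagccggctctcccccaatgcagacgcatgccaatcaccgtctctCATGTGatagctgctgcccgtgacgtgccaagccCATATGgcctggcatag
Isl1, chr13:116309689-116309938, minus strand: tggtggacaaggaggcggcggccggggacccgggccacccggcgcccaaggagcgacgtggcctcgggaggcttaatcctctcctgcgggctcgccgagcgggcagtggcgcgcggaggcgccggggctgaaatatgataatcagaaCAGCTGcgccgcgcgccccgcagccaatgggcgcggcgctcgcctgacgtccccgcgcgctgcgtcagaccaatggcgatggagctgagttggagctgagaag
Fev, chr1:74885409-74885658, minus strand: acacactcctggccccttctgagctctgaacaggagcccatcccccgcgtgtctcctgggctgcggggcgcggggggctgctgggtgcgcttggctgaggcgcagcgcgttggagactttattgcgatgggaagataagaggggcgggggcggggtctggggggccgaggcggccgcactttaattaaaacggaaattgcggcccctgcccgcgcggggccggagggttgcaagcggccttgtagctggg
CANNTG reads alike on both strands. It occurred 1 time upstream of Neurog3, Neurod1 and Isl1, 3 times upstream of Neurod2 and of Nkx2-2, and not at all upstream of Fev. Pax6 has 2 annotated starts, with no match before the first and 1 before the second. These starts are those of RefSeq, and some of the stretches lie partly or wholly in GENCODE exons of the same gene. That held for 115 of the 250 bases of Neurod1, 53 of Nkx2-2 and all 250 before the second Pax6 start. It also held for 11 bases of Fev, 3 of Neurod2 and 1 of Isl1. The Nkx2-2 stretch (chr2:147186403-147186652) lies within the GENCODE span of its gene. The narrower CAGATG, searched on either strand and counted within CANNTG, occurred 1 time each upstream of Neurod2 and Nkx2-2. Of 32851 RefSeq promoters of the same length, 66.2% held CANNTG, with a median of 1 match, and 14.4% held CAGATG. A match is a run of letters and not a measured site.

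In the GENCODE annotation of GRCm38 all 9 members are protein-coding genes. Neurog3 lies on chromosome 10 (chr10:62133090-62134763), Neurod1 on chromosome 2 (chr2:79452521-79456751), Neurod2 on chromosome 11 (chr11:98325415-98329648) and Pax4 on chromosome 6 (chr6:28442334-28449353). Pax6 (chr2:105668900-105697364), Insm1 (chr2:146221921-146225020) and Nkx2-2 (chr2:147177546-147194243) are also on chromosome 2, and Isl1 is on chromosome 13 (chr13:116298281-116309689). Fev (chr1:74881509-74885419) lies near the microRNA gene at the centre of the study: Mir375 (chr1:74900658-74900721) is on the same strand and 15.24 kb away, with 1 annotated gene, Cryba2, between them.

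The mRNA values are normalized counts, that is, reads per gene divided by a factor per library. Between 6829092 and 21812322 reads stood behind a library, as far as the steps between its low values show. The values are not divided by gene length, so a level of one gene set against that of another also carries their lengths. Defining genes of the labelled cells were present in all 16 libraries, with summed stem cell markers between 12189 and 148983 normalized counts. The 22 enteroendocrine markers, none of them a member, were summed as well. They reached 667363 to 1440179 in the germ-free, 414485 to 1419360 in the chow, 152345 to 366753 in the conventionalized and 131939 to 338649 in the high fat diet libraries. The group medians of these sums had the same order as those of the 8 members other than Neurog3. In bulk libraries fewer endocrine cells and less RNA per cell cannot be told apart. For 2 animals the small RNA column names conflict with the labels about the diet: the column of chow replicate 3 says high fat, and that of the animal of high fat diet replicate 3 says chow. The labels were followed here.

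All members but Neurog3 had the same order of group medians, which was germ-free, chow, conventionalized and high fat diet from high to low. Neighbouring groups in this order overlapped, except chow and conventionalized for Pax6 and for Nkx2-2. Neurog3 had the order germ-free, high fat diet, chow and conventionalized, and each neighbouring pair overlapped. Within the chow group, replicates 3 and 4 lay above replicates 1 and 2 for each of the 9 members.

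**Figure D1:**
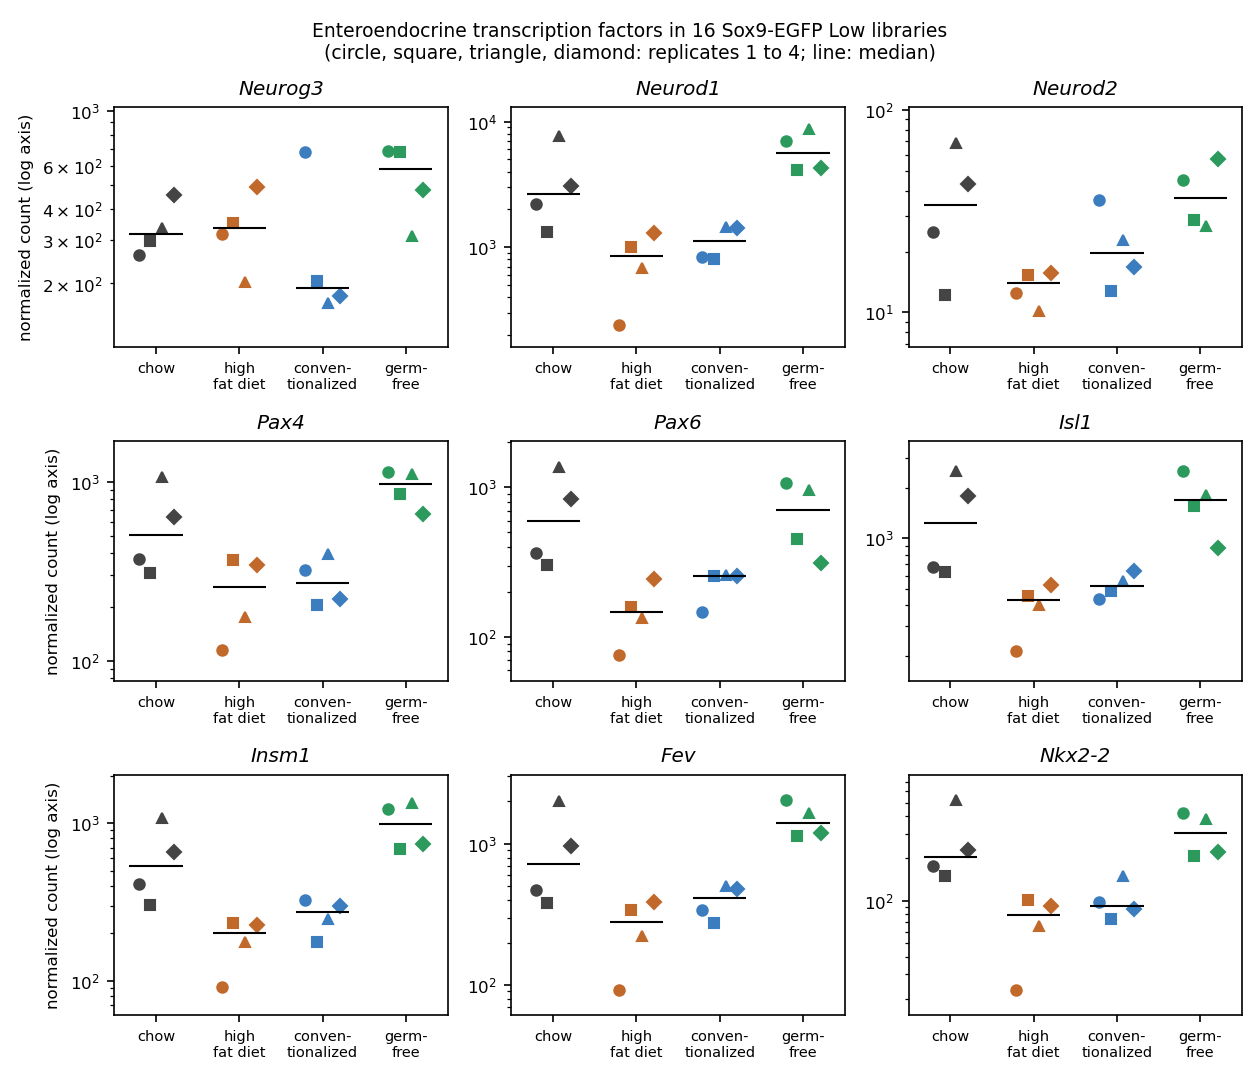
Normalized counts of the 9 members (log axis, one panel per gene) in the 16 Sox9-EGFP Low libraries by group, with 1 symbol per library and a line at the group median. Neurod1 lies between 4112 and 8712 in the germ-free libraries and between 805 and 1456 in the conventionalized ones, while Neurog3 overlaps between all groups.

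Germ-free mice have no microbes, and conventionalized mice have received them, so this comparison asks how the presence of microbes goes with gene expression in the sorted crypt cells. Of the 9 members, 6 were higher in the germ-free libraries at an adjusted p under 0.05, and none was lower: Neurod1, Insm1, Fev, Pax4, Isl1 and Nkx2-2. Over all 20214 genes tested, 453 were called (2.24%), 394 of them higher (1.95%). The median log2 difference was 1.59 over the members and 0.11 over all genes tested. In 7 of the 9 the lowest germ-free library lay above the highest conventionalized one, which held for 6.26% of all genes, with 6.21% the other way round.

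Neurog3, the factor that starts the lineage, did not pass the test. It was measured at 690.0, 680.6, 311.5 and 478.4 normalized counts in germ-free replicates 1 to 4 and at 683.5, 205.0, 166.0 and 177.8 in the conventionalized ones. Conventionalized replicate 1 stood with the highest germ-free libraries, while the other 3 lay below all of them. This library also stood apart in markers of other cells: its goblet markers summed to 619209 normalized counts against 21366 to 78398 in the other conventionalized libraries, its enterocyte markers to 48449 against 10565 to 19249, and its tuft markers to 1306 against 4450 to 12363. The log2 difference of Neurog3 was 1.02 with an SE of 0.44, and its adjusted p in limma was 0.229. Without conventionalized replicate 1 the difference was 1.49, and the adjusted p of 0.0754 still missed the threshold.

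Neurod1, a helix-loop-helix factor that acts right after Neurog3 and is known to be needed for secretin and cholecystokinin cells, had the largest difference of the 9. Its germ-free libraries read 6949.7, 4112, 8712 and 4237.5, and its conventionalized libraries 831, 805, 1456 and 1429. No conventionalized library came near a germ-free one. The log2 difference was 2.39 (SE 0.32), or 5.24-fold, at an adjusted p of 0.0129. Neurod2, a related helix-loop-helix factor best known from neurons, was near the lower limit of what was tested, with 45.2, 28.7, 26.6 and 57.0 against 35.9, 12.8, 22.7 and 16.8. Its groups overlapped, and the log2 difference of 0.84 had an interval from -0.44 to 2.12.

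Among the factors that come next, Insm1, a zinc finger factor of endocrine and neuronal precursors, read 1235.6, 689, 1348 and 733 in the germ-free libraries and 326, 176, 246 and 299 in the conventionalized ones, with no overlap. Its log2 difference was 1.91 (SE 0.31). Pax4, a paired-box factor known for its part in serotonin and somatostatin cells, read 1128, 850.4, 1108 and 661 against 322, 205, 396 and 222. That difference was 1.73 (SE 0.29), again without overlap. Nkx2-2, a homeobox factor that with Pax4 helps set hormone identity, read 423, 209, 382 and 222 against 97.3, 74.5, 149 and 86.6. Its difference was 1.57 (SE 0.36), and its adjusted p of 0.0448 was the one nearest the threshold among those called. It was not called after median-of-ratios rescaling (adjusted p 0.0614) or quantile normalization (0.0628).

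Fev, an ETS factor best known from serotonin neurons, read 2048, 1138, 1643 and 1185 in the germ-free libraries and 343, 275, 501 and 480.3 in the conventionalized ones. The lowest germ-free library was above the highest conventionalized one by more than the whole range of the latter. The log2 difference was 1.91 (SE 0.29), or 3.75-fold, at an adjusted p of 0.0129. Isl1, a LIM homeobox factor of several hormone cells, had germ-free values from 877 to 2527 and conventionalized values from 434 to 644, a difference of 1.59 (SE 0.31). Pax6, a paired-box factor known for its part in proglucagon and GIP expression, read 1062, 454, 959.5 and 314 against 146, 254, 260.2 and 256. Its groups did not overlap either, and yet its difference of 1.47 (SE 0.40) missed the threshold at an adjusted p of 0.0820.

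Germ-free replicate 1 had the highest value of its group for Neurog3, Pax4, Pax6, Isl1, Fev and Nkx2-2. Without this library no member was called, and 1 gene was in all. Leaving out any other library left 4 to 7 members called.

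The other regulators of the endocrine lineage went the same way where they passed the test. Of 22 tested, 8 were called higher and none lower, with a median log2 difference of 1.22. Among those called were Lmx1a at 2.51, a LIM homeobox factor of serotonin cells, Myt1 at 2.00, Rfx6 at 1.83, which is needed for islet and gut endocrine cells, Hhex at 1.67 and St18 at 1.66. Of 25 endocrine product genes 12 were called higher, with a median of 2.03. They were led by Slc18a1 (2.55), Syp (2.54), Tph1 (2.46), Scg2 (2.45), Ghrl (2.31) and Vgf (2.31). Tph1 makes serotonin, and Ghrl encodes ghrelin. The 13 tested genes of a list of Notch components and secretory lineage factors had a median of -0.44. Only Dll4, a Notch ligand, was called among them, at 1.38.

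Markers of other cells also differed between these groups, and their part in the members' differences was not tested. The 10 stem cell markers were all lower in the germ-free group with none called, the 13 cycling markers were all lower with 4 called, and the 12 tuft markers were all higher with none called. The stromal and endothelial markers summed to 361 to 806 in the germ-free and 45.8 to 429 in the conventionalized libraries. Enteric neuron and glia markers summed to 499.7 to 1141 against 255 to 416. Some members are also expressed in neurons.

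**Figure D2:**
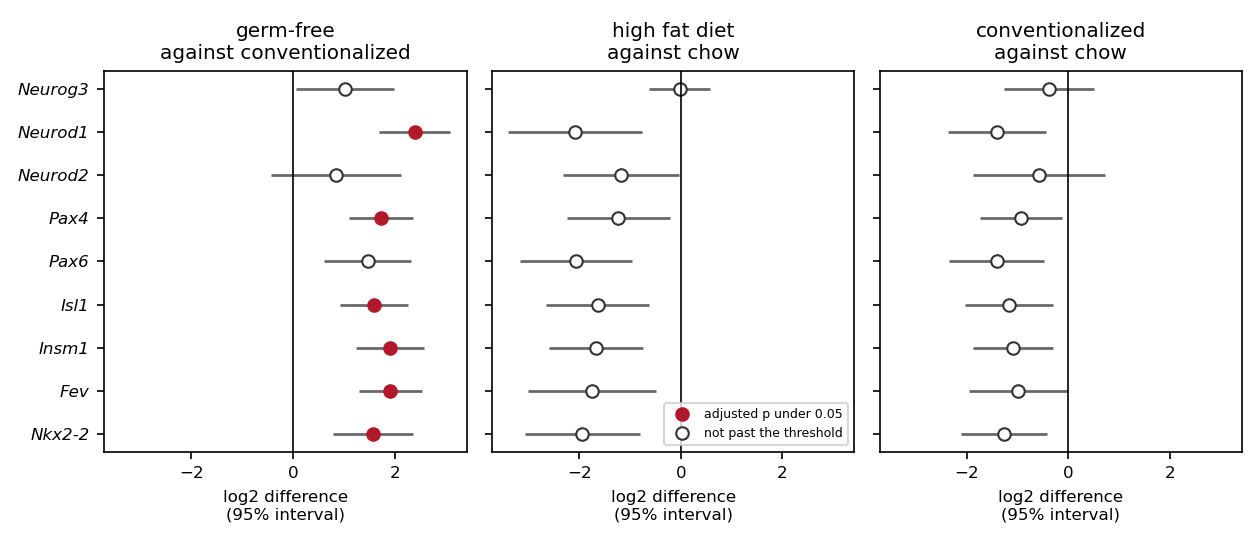
Log2 difference of each member (x axis, with its 95% interval as a line) in the 3 comparisons of mRNA groups, one panel each. Filled points mark an adjusted p under 0.05, which 6 members reached in germ-free against conventionalized libraries and no member reached in the other panels, which have no term for the column numbers.

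High fat diet against chow asks how diet goes with expression in the same sorted fraction. No member was called by limma, against 135 of 16421 genes in all (0.822%), of which 101 were lower (0.615%) and 34 higher (0.207%). At an unadjusted p under 0.05, 4383 genes passed, 8 of the 9 members among them. Still, 5 members had every high fat diet library below every chow library, a separation that 7.36% of all genes had in this direction and 8.81% in the other. The median log2 difference over the members was -1.67, against 0.05 over all genes.

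Pax6 came nearest to the threshold. It read 75.9, 159, 134 and 246 in high fat diet replicates 1 to 4 and 364, 301, 1362 and 836 in the chow ones, with no overlap. The log2 difference was -2.07 with an SE of 0.49, and the adjusted p was 0.0749. Neurod1 read 241, 1008, 688 and 1294 against 2215, 1326, 7625 and 3067, so that the highest high fat diet library fell just short of the lowest chow library. Its difference was -2.08 (SE 0.59) at an adjusted p of 0.0911. Nkx2-2 read 23.0, 101, 66.4 and 91.6 against 178, 151, 524 and 228, also without overlap, with a difference of -1.94 and an adjusted p of 0.0843. Insm1 and Isl1 were the other members without overlap, at -1.67 (0.0785) and -1.64 (0.0895).

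Fev, Pax4 and Neurod2 overlapped between the diets. Fev read 92.0, 338, 223 and 388 on the high fat diet and 472, 382, 2009 and 966 on chow, so that only high fat diet replicate 4 passed the lowest chow library, and the difference was -1.75 with an adjusted p of 0.102. Pax4 differed by -1.23 and Neurod2 by -1.18, with adjusted p of 0.124 and 0.178. Neurog3 showed no such shift. It read 317, 351, 203 and 492 on the high fat diet and 260.4, 298, 335 and 458 on chow. The ranges lay almost on top of each other, and the log2 difference of -0.02 had an interval from -0.63 to 0.58.

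The diet libraries carry column names with 2 series of numbers, one for replicates 1 and 2 of both diets and one for replicates 3 and 4, and the labels do not say what a series is. The deviations of a high fat diet and a chow library from their group means correlated between -0.10 and 0.29 within a series, with 7 of 8 pairs above 0, and between -0.33 and 0.03 across series, with 2 of 8 above 0. With the series as a term of the fit, an alternative chosen after seeing the data, 6 members were called lower on the high fat diet. In all, 1535 of 16421 genes were called, 821 lower and 714 higher. The 6 members were Pax6 (adjusted p 0.0142), Isl1 (0.0187), Insm1 (0.0225), Neurod1 (0.0317), Nkx2-2 (0.0333) and Fev (0.0383). Within replicates 1 and 2, as well as within 3 and 4, each of these 6 had both high fat diet libraries below both chow libraries. The same libraries gave the 6 calls, and the share of all genes with this separation was not counted. The difference for Pax6 was -1.58 in the first series and -2.55 in the second, and for Neurod1 it was -1.80 and -2.36. Neurog3 differed by 0.26 and -0.31, and its adjusted p with the series term was 0.967.

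This comparison leaned on single libraries. Without chow replicate 2, the lowest chow library for 8 of the 9 members, 7 members were called lower, all but Neurog3 and Pax4, and 2590 genes in all. Without any other library, and with no term for the series, no member was called, and the same was true after both animals with conflicting diet labels were left out.

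Of 19 other regulators tested, 2 were called lower on the high fat diet, Etv1 at -2.86 and Rfx6 at -1.98, and none higher, with a median of -0.76. The 25 product genes all had negative differences with a median of -1.91, and none was called. Of 13 Notch and secretory genes none was called. Tuft cell markers were lower as well, with 6 of 12 called, and enteric neuron and glia markers had a median of -1.39 with none called. T lymphocyte markers summed to 31.1 to 46.6 normalized counts on the high fat diet and 72.9 to 320.9 on chow, without overlap, and cycling markers to 34419 to 43033 against 14614 to 35728. Their part in the members' differences was not tested.

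Conventionalized and chow mice both carry microbes, and their libraries each enter one of the comparisons already given. No member was called, against 17 of 17941 genes (0.0948%), all lower. All 9 members had negative differences, from -0.38 for Neurog3 to -1.41 for Neurod1 and Pax6. Pax6 and Nkx2-2 did not overlap between the groups, as was true of 4.38% of genes with lower and 2.17% with higher conventionalized values. Their differences were -1.41 and -1.27, with adjusted p of 0.265 and 0.266. Of 20 other regulators and 25 products none was called, with medians of -0.49 and -1.44.

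Neurog3 and Neurod1 are usually read as an earlier and a later step of one lineage, and they were set side by side library by library. As counts not corrected for length, Neurog3 came to 11.8%, 22.5%, 4.40% and 14.9% of Neurod1 in chow replicates 1 to 4. It came to 132%, 34.9%, 29.5% and 38.0% on the high fat diet. All 4 high fat diet libraries exceeded all 4 chow libraries. The mean log2 ratio of Neurog3 to Neurod1 was -1.07 ± 0.99 (SD, n = 4) on the high fat diet and -3.12 ± 1.00 (SD, n = 4) on chow, a difference of 2.05. The pair was chosen after this separation was seen, so the difference is a description with no test. The germ-free ratio was 9.93%, 16.6%, 3.58% and 11.3%, and the conventionalized ratio 82.3%, 25.5%, 11.4% and 12.4%. These overlapped, with a difference in mean log2 ratio of -1.37.

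**Figure D3:**
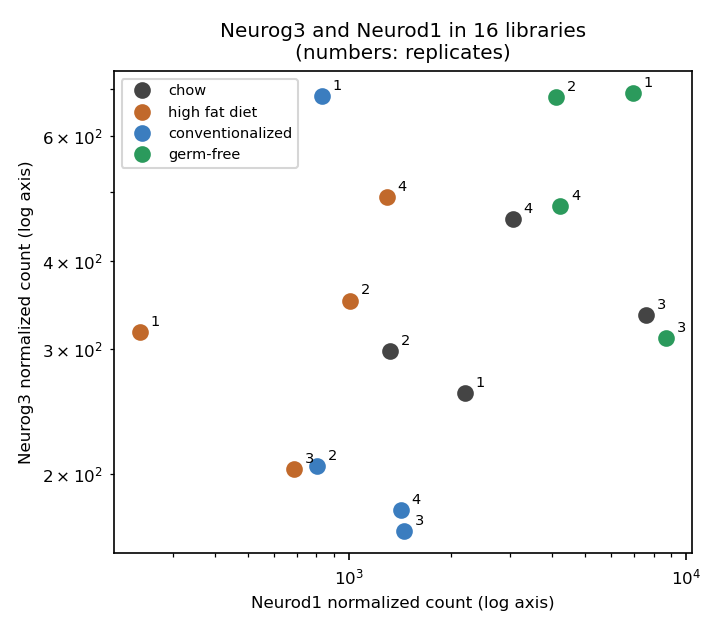
Neurog3 (y axis) against Neurod1 (x axis) in the 16 libraries, both as normalized counts on log axes, coloured by group and numbered by replicate. The high fat diet libraries lie to the left of the chow libraries at like heights, and conventionalized replicate 1 stands apart from its group at a Neurog3 value of 683.5.

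After the group mean was subtracted from log2(normalized count + 1), the 8 members other than Neurog3 had Pearson r between 0.36 and 0.97 with each other over the 16 libraries. Neurog3 had r between -0.05 with Neurod1 and 0.50 with Neurod2. These values are a description: the libraries share a normalization, and chow replicates 3 and 4 were high for all members. Conventionalized replicate 1 stood apart from its group for Neurog3, at 683.5 against 166.0 to 205.0. It was low for Pax6, at 145.8 against 254.0 to 260.2. The part of this library in the r values of Neurog3 was not tested.

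Over 18681 genes the patterns most like Neurod1 by that measure were Pcsk1 (r = 0.99), which encodes a prohormone convertase, Syp (0.98), a vesicle protein, and Trpa1 (0.98), an ion channel of serotonin cells. Fev was nearest to Cxxc5 (0.99), Amigo2 (0.97) and Prnp (0.97), and Nkx2-2 to Rab3b (0.96), Prnp (0.96) and Tpbg (0.95). Pax4 was nearest to Rab3b (0.94), Slc35d3 (0.94) and Amigo2 (0.93). Isl1 had Fxyd6, Rogdi and Capsl at 0.97 each, Pax6 had Anxa6 (0.97), Gm11992 (0.96) and Pisd-ps1 (0.96), and Insm1 had Mapk8ip1 (0.96), Anxa5 (0.96) and Hepacam2 (0.95). Neurog3 and Neurod2 had weaker nearest neighbours. For Neurog3 they were Klk1 (0.85), Dusp3 (0.83) and Sprr2a1 (0.83), and for Neurod2 Fam114a1 (0.86), Agfg1 (0.86) and Sumf1 (0.85).

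The single-cell samples show which cells hold these transcripts. The matrices list 1209 and 1251 barcodes in set 1 and 7711 and 7665 in set 2, wild type first. Cells with at least 500 genes, at least 1000 UMIs (unique molecular identifiers, 1 per captured transcript) and under 25% mitochondrial UMIs were kept. These were 1197 wild-type and 1241 knockout cells in set 1 and 3363 and 3355 in set 2. The sets differ: cells passing a lymphocyte or myeloid marker gate made up 3.43% and 5.24% of set 1 and 46.2% and 25.7% of set 2. Median UMIs per cell were 16325, 15986, 6910 and 14059 in the same order. Kept cells shared 1 barcode between the set 1 samples and 3 between the set 2 samples. Values for Mir375 itself were not analysed here, so the genotype labels were not checked against it.

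Endocrine cells were taken by a gate, at least 7 of the 22 enteroendocrine markers with a UMI, which uses no member. It held 33 wild-type and 31 knockout cells in set 1 and 45 and 65 in set 2, or 2.76%, 2.50%, 1.34% and 1.94% of the kept cells. Their median UMIs were 15619, 11487, 12901 and 8264. Nearly every gated cell held a member. At least 1 member had a UMI in 32 of 33, 30 of 31, 45 of 45 and 65 of 65 gated cells, and at least 5 members in 25, 22, 35 and 47 of them. Members were also found outside the gate, in 51, 53, 40 and 78 cells, which is 4.38%, 4.38%, 1.21% and 2.37% of the cells there. At least 5 members met in 1, 3, 3 and 9 of these. Among 1202 enterocyte-gated cells, with a median of 12381 to 25406 UMIs per sample, Neurog3 and Fev had no UMI in any cell, which allows a share of up to 0.250%. There, the other members were in 1 to 9 cells.

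How far a member was confined to gated cells differed among the 9. Fev had 97.4%, 97.1%, 96.6% and 100% of its UMIs in gated cells, in wild type and knockout of set 1 and then of set 2. Isl1 had 97.7%, 98.6%, 98.0% and 92.6%, and Neurod1 had 91.0%, 95.2%, 95.6% and 91.6%. These are the factors found almost wholly in cells that already carry hormone genes. Pax6 was close to them at 87.8% to 96.8%. Nkx2-2 had 72.3% to 79.6% and Insm1 58.1% to 76.0%. Neurog3 was at the other end, with 31.7%, 39.1%, 17.6% and 28.1% of its UMIs in gated cells.

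Within the gate, the commonest members were Insm1 and Neurod1. Insm1 had a UMI in 29 of 33, 25 of 31, 40 of 45 and 62 of 65 cells, and Neurod1 in 28, 27, 41 and 57. Nkx2-2 was in 27, 26, 33 and 47, Isl1 in 26, 19, 35 and 43, Pax6 in 26, 18, 36 and 46, and Fev in 20, 24, 37 and 42. Neurod2, Pax4 and Neurog3 were in the fewest, each in 4 to 17 gated cells of a sample. These shares depend on depth: after each cell was thinned to 2000 UMIs, Insm1 was found in 39.4%, 32.3%, 40.0% and 53.1% of gated cells and Isl1 in 57.6%, 38.7%, 48.9% and 43.8%, with 1 shallower cell left out.

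Neurog3 had a UMI in 19 and 21 cells of set 1 and in 12 and 40 of set 2. Insm1 was its most frequent partner, found in 15, 18, 9 and 31 of these cells. Nkx2-2 was in 13, 13, 9 and 24 and Neurod1 in 9, 8, 5 and 22. Isl1 was in 7, 3, 5 and 10, Fev in 5, 7, 3 and 9 and Pax6 in 6, 5, 2 and 5. Among the factors with nearly all of their UMIs in gated cells, Neurod1 was thus beside Neurog3 more often than Isl1 and Fev in each sample except wild type of set 2, where Isl1 was as frequent. Of the Neurog3 cells, 47.4%, 52.4%, 41.7% and 40.0% passed the gate for cycling cells. Among Insm1 cells this share was 41.7%, 40.5%, 24.5% and 25.7%, and among Isl1 cells 42.4%, 36.4%, 14.3% and 16.4%. Of the cells in the endocrine gate, 12 of 33, 13 of 31, 10 of 45 and 11 of 65 passed the cycling gate. The share over all kept cells was not counted. The cycling gate counts detected markers and so depends on depth, whose part in these shares was not tested. Neurog3 cells had medians of 15619, 17972, 22672.5 and 17596 UMIs, against 16325, 15986, 6910 and 14059 over all kept cells. No other member was seen in 4, 2, 2 and 9 Neurog3 cells.

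The split was also counted in the 34 cells with at least 10 Neurog3 UMIs, a threshold chosen after the values were seen. Of these, 11 were in the endocrine gate and 23 were outside it, with 2, 6, 1 and 2 gated cells in the 4 samples and 5, 5, 3 and 10 outside. Outside the gate, Insm1 was in 22 of 23 cells, Nkx2-2 in 14, Neurod2 in 12, Neurod1 in 6, Pax4 in 5, Isl1 in 4, Pax6 in 2 and Fev in none, and 8 of the cells were cycling. Inside the gate Insm1 and Nkx2-2 were in all 11, Neurod1 in 10, Neurod2 in 8, Fev in 7, Pax4 and Isl1 in 6 each and Pax6 in 4, and 1 of the 11 was cycling. The cells outside were not shallower: their median was 12875 UMIs against 9060. The highest single count was 70 Neurog3 UMIs in a cell outside the gate. Cells of a sample are not replicates, so these counts carry no test.

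Over all kept cells each of the 36 pairs of members met in more cells than the product of their shares gives, in 4 of 4 samples. The totals ranged from 9.86 times that product for Neurog3 with Pax6 to 65.1 times for Neurod2 with Pax4. After thinning to 2000 UMIs, 29 of the 36 pairs kept this in 4 of 4 samples. Gated cells are few, so a pair kept to them is above this product whatever its pattern among them. Within the gate the ratios were nearer to 1. Neurog3 met Neurod2 in 17 gated cells where the shares give 7.54, and Pax4 in 17 where they give 7.64. Neurod2 met Pax4 in 14 where they give 8.43. Each of these 3 pairs was above its product in 4 of 4 samples. Neurog3 with Pax6 was below it in 4 of 4, at 16 cells against 25.6, and so was Neurog3 with Isl1, at 19 against 25.03. Pax6 and Isl1 met in 103 cells against 89.9. Depth differs between gated cells, and its part in these counts was not tested.

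**Figure D4:**
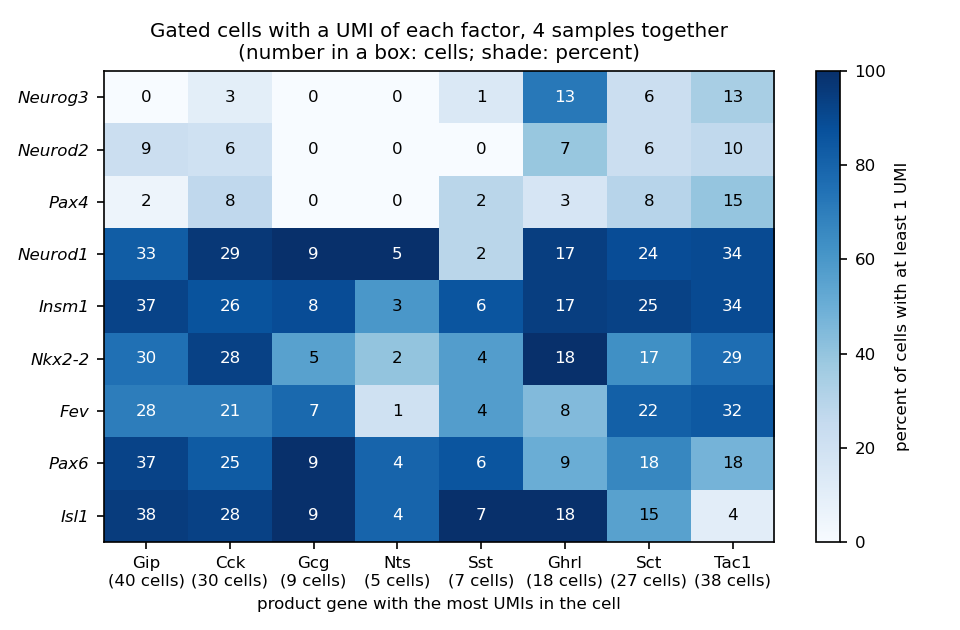
Gated cells of the 4 samples by the hormone or product gene with the most UMIs in the cell (columns, with the number of cells), and how many have a UMI of each member (rows). The shade is the percent of cells; Isl1 is in 4 of 38 Tac1-led cells and 38 of 40 Gip-led cells, and Neurog3 is in none of the Gip-led cells.

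The 174 gated cells were grouped by the product gene with the most UMIs in the cell. Tac1 encodes substance P and marks serotonin cells of the gut, Gip encodes the incretin GIP, and Ghrl encodes ghrelin. Isl1 divided these groups most. It had a UMI in 4 of 38 Tac1-led cells, namely 0 of 4 and 1 of 9 in wild type and knockout of set 1 and 2 of 9 and 1 of 16 in set 2. It was in 38 of 40 Gip-led cells, 18 of 18 Ghrl-led cells and 119 of the 136 gated cells not led by Tac1. Cells led by Sct, the secretin gene, are among these 136 and had a lower share, with Isl1 in 15 of 27. The Isl1 level was also taken as CPM, the UMI count scaled to a fixed total of UMIs. It was 454 in Sct-led and 368 in Gip-led cells, so only the share was lower than in Gip-led cells. In Ghrl-led cells the level was 1201 and in Tac1-led cells 22.2. The Tac1-led cells were the deeper ones, with a median of 16437 UMIs against 11235.5 in Gip-led and 9425.5 in Ghrl-led cells.

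Pax6 was in 37 of 40 Gip-led cells, and in 18 of 38 Tac1-led and 9 of 18 Ghrl-led cells. The last 2 shares were alike, but the levels were not. In CPM Pax6 was at 123 in Ghrl-led and 39.2 in Tac1-led cells, against 242 in Gip-led cells. Pax4 was in 15 of 38 Tac1-led, 8 of 27 Sct-led (secretin) and 2 of 40 Gip-led cells. In CPM its level was higher in Sct-led cells, at 47.1 against 29.7 in Tac1-led and 2.67 in Gip-led ones. Fev was in 32 of 38 Tac1-led, 22 of 27 Sct-led, 28 of 40 Gip-led and 8 of 18 Ghrl-led cells. Its level was 243 CPM in Sct-led, 188 in Cck-led, 183 in Ghrl-led, 176 in Tac1-led and 72.2 in Gip-led cells, another order than that of the shares. The order of the first 4 levels leans on single cells. In Sct-led cells 1 cell held 35 of the 98 Fev UMIs. In Cck-led cells 1 held 27 of 89, and in Tac1-led cells 1 held 28 of 166. The Sct-led cells had a median of 9993 UMIs. Neurog3 was in 13 of 18 Ghrl-led cells, with 4 of 6, 3 of 3, 1 of 2 and 5 of 7 in the samples, and in 13 of 38 Tac1-led cells. It was in 0 of 40 Gip-led cells of the 4 samples together, which by counting error alone allows a share of up to 7.50%. By share of cells, Insm1, Neurod1 and Nkx2-2 divided the cells led by Tac1, Gip and Ghrl less. Insm1 was in 34 of 38, 37 of 40 and 17 of 18 of them, Neurod1 in 34, 33 and 17 and Nkx2-2 in 29, 30 and 18. The level of Nkx2-2 was 71.0, 89.6 and 306 CPM in the same order. Among the 7 cells led by Sst, the somatostatin gene, Neurod1 was in 2.

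The knockout comparison asks what the loss of miR-375 does to the cells of the intestine, and for the members it was made on UMIs summed over the gated cells of each sample. No member was called in edgeR's quasi-likelihood test of 2 wild-type against 2 knockout sums, and neither was any of 7724 genes (0%). At an unadjusted p under 0.05, 85 genes passed in edgeR and 26 in DESeq2, which called none either. The median log2 difference was 0.34 over the members and 0.01 over all genes.

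Neurog3 had the largest difference of the 9. It rested on 52 UMIs in wild type and 106 in knockout of set 1, and on 30 and 92 in set 2. Few cells held these UMIs: 9 of 33 and 8 of 31 gated cells had one in set 1, so the share of cells was not higher in that knockout, and 4 of 45 and 15 of 65 had one in set 2. After thinning to 2000 UMIs these were 3 of 33, 5 of 31, 2 of 45 and 8 of 64. In wild type of set 1 the top 2 cells held 35 of the 52 UMIs, and they had 7 and 8 markers where the gate asks for 7. In wild type of set 2, 1 cell held 21 of the 30. In the knockout samples the top 2 cells held 47 of 106 and 30 of 92. As CPM, this was 80.4 and 179 in set 1 and 30.0 and 94.5 in set 2, so that the knockout was 2.23 times the wild type in set 1 and 3.15 times in set 2. Both knockout sums lay above both wild-type sums, and the share of all genes with this order was not counted. The log2 difference was 1.36 with an SE of 0.67, and the adjusted p was 1.00. With the set as a term of the fit, which leaves 1 residual degree of freedom and takes the spread from all genes together, the difference was 1.42 at an adjusted p of 3.68e-07, 1 of 42 genes called. Each genotype has 2 sums, and the labels do not say what a set is.

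Neurod2 read 10.8 CPM in wild type and 25.3 in knockout of set 1, and 12.0 and 22.6 in set 2, on 7 to 22 UMIs a sample. Its log2 difference of 1.11 did not pass the test. Neurod1 read 187 and 270.0 CPM in set 1 and 239 and 313 in set 2, a log2 difference of 0.51. Pax4 read 17.0 and 20.3 in set 1 and 17.0 and 25.7 in set 2, a difference of 0.48, and Nkx2-2 read 114 and 118, then 94.1 and 125, a difference of 0.25. With Neurog3 and Fev, these made 6 of 9 members that were higher in the knockout of both sets. The share of all genes that were so was not counted, so this number is a description. Insm1 differed by 0.07. Pax6 was lower in the knockout of both sets, at 159 and 109.7 CPM in set 1 and at 179 and 154 in set 2, a difference of -0.34. Isl1 read 464 and 354 in set 1 and 351 and 349 in set 2. Fev, the member nearest to Mir375, read 173 and 228 in set 1 and 115 and 118 in set 2, or 1.32 times and 1.03 times the wild type. None of these differences passed the test, and leaving out 1 sample turned the sign for Isl1, Insm1, Fev and Nkx2-2.

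**Figure D5:**
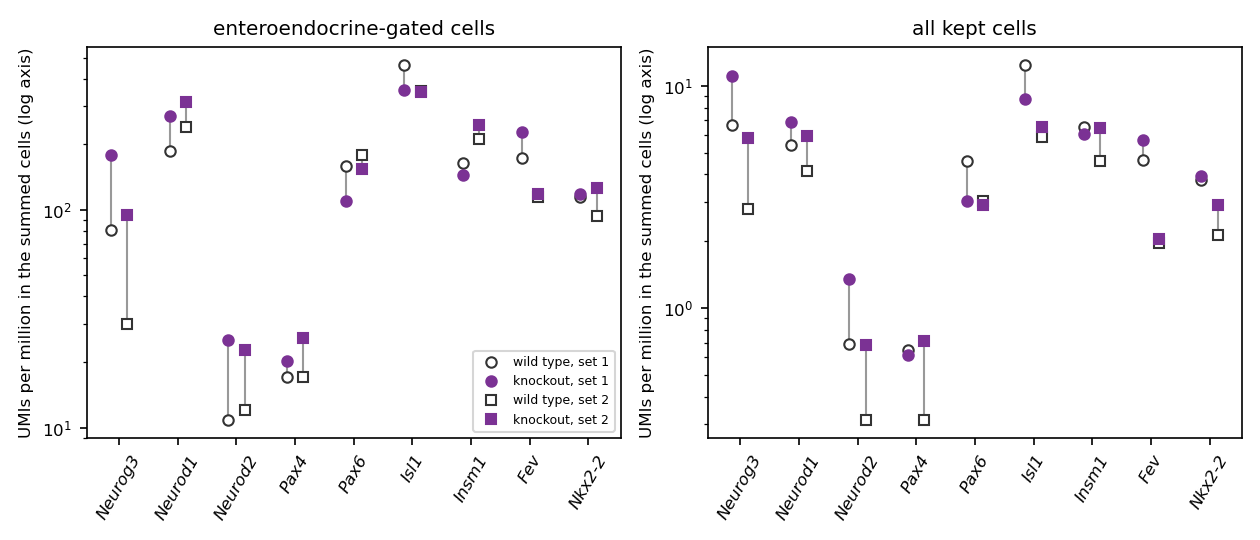
CPM, UMI counts scaled to a fixed total (log axis), of each member in wild-type (open) and knockout (filled) sums, with lines joining the samples of a set, for gated cells (left) and all kept cells (right). Neurog3 is higher in the knockout of both sets in both panels, at 80.4 and 179 in set 1 and 30.0 and 94.5 in set 2 for the gated cells.

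Summed over all kept cells, Neurog3 read 6.66 and 11.1 CPM in set 1 and 2.81 and 5.85 in set 2. The knockout was 1.67 and 2.08 times the wild type, with a log2 difference of 0.86. The set 2 samples differ in their immune share, and immune UMIs are part of this denominator. Without lymphocyte and myeloid cells the ratios were 1.81 and 1.96. No member and none of 13637 genes was called (0%), with 96 at an unadjusted p under 0.05. DESeq2 called 6 genes and no member. Neurog3 was seen in 1.64% and 1.79% of cells outside the immune gates in set 1 and in 0.608% and 1.61% in set 2. After thinning to 2000 UMIs these shares were 0.865%, 1.02%, 0.345% and 0.912%. In set 1 the exact intervals of both kinds of share overlap. In set 2 they do not overlap before thinning (0.304% to 1.09% and 1.15% to 2.18%) and do after it (0.127% to 0.750% and 0.573% to 1.38%), and they cover counting error only.

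Other genes of the lineage gave no call in the gated sums. The 18 other regulators tested had a median log2 difference of 0.11, the 8 Notch and secretory genes 0.46, and the 22 product genes -0.14. Goblet cell markers had a median of 0.98 over 8 genes in the same sums, with none called, and their part in the members' values was not tested.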

How the data were processed

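The members and the gene lists were chosen with earlier results of these data known. Values of the mRNA table are normalized counts, a signal made by the authors by scaling each library in a way that the labels do not state. Per the labels, the SMARTer Ultra Low Input kit was used together with Nextera XT. The single-cell values are whole UMI counts from 10x Genomics Chromium preparations, as deposited by the authors. The submitters' processing notes name mm10, Cell Ranger, STAR, Salmon and DESeq2 for the whole series, with no roles. In the mRNA table, 381 entries without a name (0.0338% to 0.0804% of a library) were left out of the tests. Of the low values, 67.9% to 74.7% were whole reads within 0.02, too few for a count test.

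mRNA groups were compared with limma 3.58.1 in R 4.3.3 (lmFit, eBayes with a trend) on log2(value + 1), a scale that understates changes of low genes. Each fit held the 2 groups compared and all genes with a mean of at least 10, with two-sided p adjusted after Benjamini and Hochberg and called under 0.05. UMIs were summed per sample and tested with edgeR 4.0.16 (TMM, filterByExpr, quasi-likelihood test), and DESeq2 1.42.0 was the alternative tool. Cells were assigned by counts of marker genes, not by clustering, and no doublet caller was run: 3, 7, 1 and 3 gated endocrine cells also passed another gate. Shares have exact Clopper-Pearson intervals at 95%, and the limit of a count of 0 is 3 cells of the total. Both cover counting error only, also where the cells of several samples are pooled. Both scripts for tests across genes were tested on simulated data. All 9 members are named in each comparison, with up to 6 called genes per list and the 3 genes most like each member; 1 gene is not reported here. Alternatives were other pseudocounts, filters, scalings, gates and tools, the replicate block, the series of column numbers, and leaving out libraries. Python 3.11.15, numpy 2.4.6, scipy 1.17.1, pandas 2.3.3 and matplotlib 3.10.9 were used for the rest.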

Additional observations from a re-analysis of the deposited data

Results flagged for a closer look

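Of 36 groups of 4 libraries, one for each member and mRNA group, 2 held a library whose distance to the nearest of the others was large for the range of the group by Dixon's criterion, both times conventionalized replicate 1. Its Neurog3 value was 683.5 normalized counts, while the other 3 conventionalized libraries lay between 166.0 and 205.0. Its Pax6 value was 145.8, while the others lay between 254.0 and 260.2. The goblet markers of the same library summed to 619209 normalized counts, while those of the others lay between 21366 and 78398. Chance flags about 1 in 20 groups by this criterion, and the 36 groups share libraries.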

How the results depend on the processing

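The counts compared were members called, members found in every single-cell sample, and pairs of members above their product in every sample. Under other settings, 34 values stayed within 1.5 times the reported count and 5 did not. Without 1 library or sample, 30 values did and 2 did not. In germ-free against conventionalized libraries the number of members called ranged from 0 to 7 when 1 library was left out, with 0 without germ-free replicate 1. Nkx2-2 was lost after median-of-ratios rescaling and after quantile normalization. All genes called were 453, with 1672 in a fit of all 4 groups (839 higher and 833 lower) and 1 to 684 without 1 library. For high fat diet against chow, 1 member (Pax6) was called without the filter on low values, with 317 genes against 135, and 0 to 7 members without 1 library, 7 of them without chow replicate 2. All 4 groups in 1 fit gave 33 genes, leaving out 1 library 0 to 2590, and leaving out both animals of conflicting diet 12. With the series of column numbers as a term, 6 members and 1535 genes were called. For conventionalized against chow, the 17 genes became 26 with all 4 groups, 45 without chow replicates 3 and 4, and 0 to 6 without 1 library. DESeq2 called 6 genes against 0 in all kept cells. The cause was not tested.

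Replicate numbers were not used as pairs in the reported fits of the mRNA libraries. Same-numbered libraries had correlations of their deviations between -0.13 and 0.39, 0.06 and 0.22, and -0.36 and 0.46 in the 3 comparisons. Same-numbered germ-free and conventionalized libraries carry close column numbers. So few correlations cannot settle whether the libraries were paired. With the replicate block 2 members were called in high fat diet against chow (271 genes), 1 in conventionalized against chow (165 genes against 17, and 39 without the filter), and 6 in germ-free against conventionalized (494). With the set as replicate block 1 member, Neurog3, was called in the gated knockout sums (42 genes against 0), where the same-set correlation was 0.56 over 2 sets, and 0 in all kept cells. No filter gave 23 genes in the gated sums and no member.

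Directions turned only for differences that had not passed the test. Neurog3 in high fat diet against chow was 0.0067 after quantile normalization, 0.21 without both animals of conflicting diet, and -0.22 to 0.20 without 1 library. Neurod2 in conventionalized against chow was 0.21 without chow replicates 3 and 4, an alternative chosen after seeing the data like those of the conflicting labels and the column numbers. In the gated knockout sums Pax4 was -0.17 under a stricter gate. Without 1 sample Isl1 ranged from -0.60 to 0.34, Insm1 from -0.065 to 0.18, Fev from -0.56 to 0.98 and Nkx2-2 from -0.13 to 0.69. In all kept cells Fev was -0.15 without cells passing another gate. Without 1 sample the ranges there were -0.13 to 1.35 for Pax4, -0.78 to 0.24 for Pax6, -0.85 to 0.66 for Isl1, -0.22 to 0.72 for Insm1, -0.83 to 1.299 for Fev and -0.29 to 0.96 for Nkx2-2. Leaving out a sample leaves 1 in its group, which is then assumed to vary like the other. Of 72 shares of cells under other settings, 34 moved beyond their interval. Depth limits Neurod2 and Pax4 most, with 7 to 25 UMIs in a gated sum.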
